A study of Mus musculus with 12 samples.

Results

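The genes described here are 49 mouse genes of the G2/M phase, mitosis and the spindle checkpoint, chosen by symbol from a fixed list and all found among the 23339 genes of the count table. RNA was sequenced from the endocrine islets of the pancreas (islets of Langerhans) of C57BL/6 mice. The 6 knockout (KO) libraries carry the genotype label miR-17-92/106 KO, and the title of the series spells the deleted microRNA clusters as miR-17-92/106b. The 6 control libraries carry the label miR-17-92/106 Control. Whether both clusters are deleted in the same cells, what drives the deletion, what the controls carry instead, and the age and sex of the mice are not given in the sources used here. The labels do not say that the libraries are separate animals, so every p-value measures the spread between these libraries, which may be technical.

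Mitosis is driven by the kinase Cdk1 bound to A- and B-type cyclins, which are switched on by Cdc25 phosphatases and by transcription factors such as Foxm1 and Mybl2. Kinetochores, protein plates built on the centromeres, then attach chromosomes to the spindle. The spindle checkpoint holds back Cdc20 and the anaphase-promoting complex until every kinetochore is attached. Most endocrine cells of adult islets are known to divide rarely, so transcripts of these genes are usually scarce there. The miR-17-92 and miR-106b clusters are known for effects on proliferation in other tissues.

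The total count per library ran from 2642420 to 5099566. Beta cell markers summed to 528828 to 704631 CPM (counts scaled to a common library size after TMM normalization) in every library. The 9 precursor genes of the deleted microRNAs had 0 counts in all libraries, and Mir17hg, the host transcript of miR-17-92, had 17 counts in KO and 11 in control libraries, so these counts could not check the genotype labels. Acinar markers, from the exocrine pancreas, summed to 11778 to 133898 CPM in KO and 10726 to 50716 CPM in control libraries, with the highest levels in KO replicates 5 and 6 and control replicate 1. Leukocyte markers reached 442.8 CPM in KO replicate 6, against at most 125.4 CPM in the other KO libraries and 80.9 to 95.1 CPM in controls. In bulk RNA, fewer cells of a type and less RNA per cell cannot be told apart.

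The deleted clusters encode the microRNAs below, shown because a shared seed (bases 2 to 8, in capitals) sets which transcripts they can pair with. The mature sequences are from RefSeq on GRCm38.p6.
miR-17-5p: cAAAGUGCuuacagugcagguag
miR-20a-5p: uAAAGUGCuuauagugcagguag
miR-106b-5p: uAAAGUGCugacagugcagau
miR-93-5p: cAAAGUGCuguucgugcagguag
miR-18a-5p: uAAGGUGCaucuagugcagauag
miR-19a-3p: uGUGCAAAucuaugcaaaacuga
miR-19b-3p: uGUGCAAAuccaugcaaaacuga
miR-92a-3p: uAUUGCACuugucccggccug
miR-25-3p: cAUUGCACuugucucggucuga
The first group of 4 shares 1 seed across both clusters, as do miR-92a-3p and miR-25-3p.

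A 7-base match to any of these seeds stood in the longest annotated 3′ UTR of 13 of the 49 genes (26.5%), beside 29.6% of 18882 annotated genes. The median 3′ UTR was 662 bases long for the 49 genes and 1014 bases for all. The miR-17 seed had matches in 4 of the 49 genes (8.16%, beside 12.3% of all genes), shown here with the match in capitals.
Bub3: agcagtggctGCACTTTtgagaatcag
Foxm1: ggacggggttGCACTTTgcttctgctt
Kif23: aaaaaaaaatGCACTTTagacatattt
Smc2: attctttttaGCACTTTtaaaattgca
Of these 4 genes only Bub3 was expressed highly enough to be tested. A match is a description of letters, not of a working site.

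Few of the 49 genes were abundant enough for a test of KO against control. The expression filter, which asks for about 10 counts in enough libraries, kept 12 of them, and 37 fell below it. None of the 12 passed an adjusted p of 0.05 (quasi-likelihood test of edgeR, Benjamini-Hochberg adjusted over 9664 genes), where 0.124% of all genes tested passed. At an unadjusted p under 0.05 there were 3 of the 12, Bub3, Spc25 and Smc4, beside 7.91% of all genes tested. DESeq2 gave an adjusted p to 31 of the 49 genes and called 1, Spc25, beside 0.229% of all genes to which it gave one. With voom 0 of the 12 were called. Of the 12, 5 had a log2 fold change above 0 and 7 below, with a median of -0.03 beside 0.00 over all genes tested. The KO and control ranges overlapped for all 12, as they did for all but 0.579% of genes tested. The 12 passed a filter on low values, so they do not stand for all 49. Among the 12, the 3 with a seed match (Bub3, Spc24 and Zwint) had a median of 0.04 and the 9 without had -0.06. Over all genes tested the medians were 0.00 for 3074 genes with a match and 0.01 for 5859 without.

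**Figure D1:**
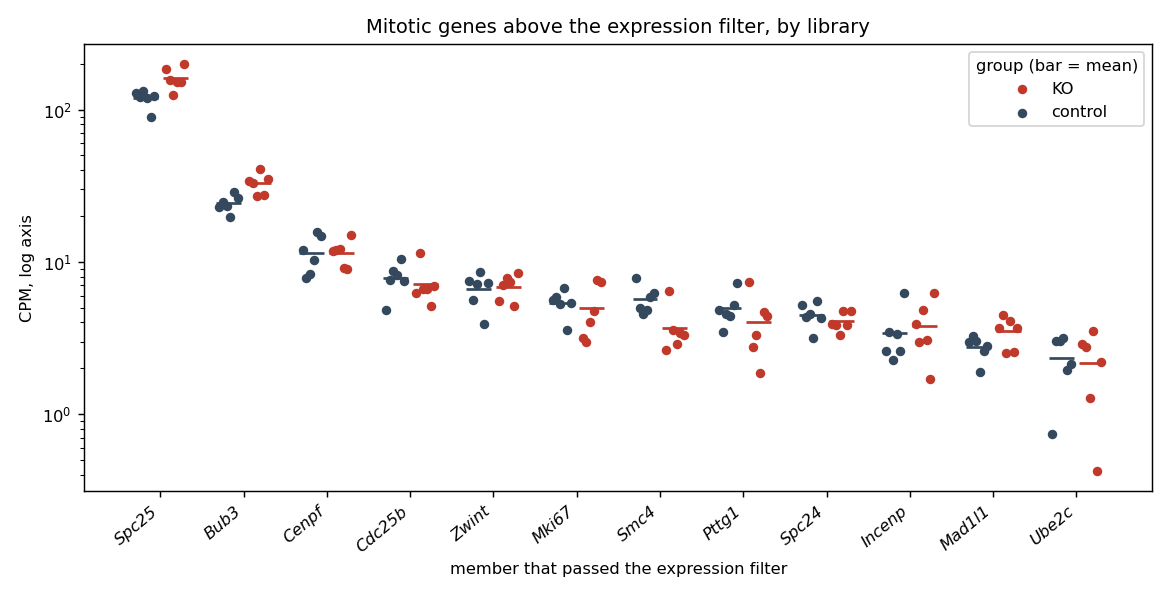
CPM in each library (points, log axis) of the 12 mitotic genes that passed the expression filter, for KO and control islets, with bars at the group means. Spc25 and Bub3 were the most abundant, and their KO points lie mostly above their control points, while 5 of the 6 KO points of Smc4 lie below its control points.

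**Figure D2:**
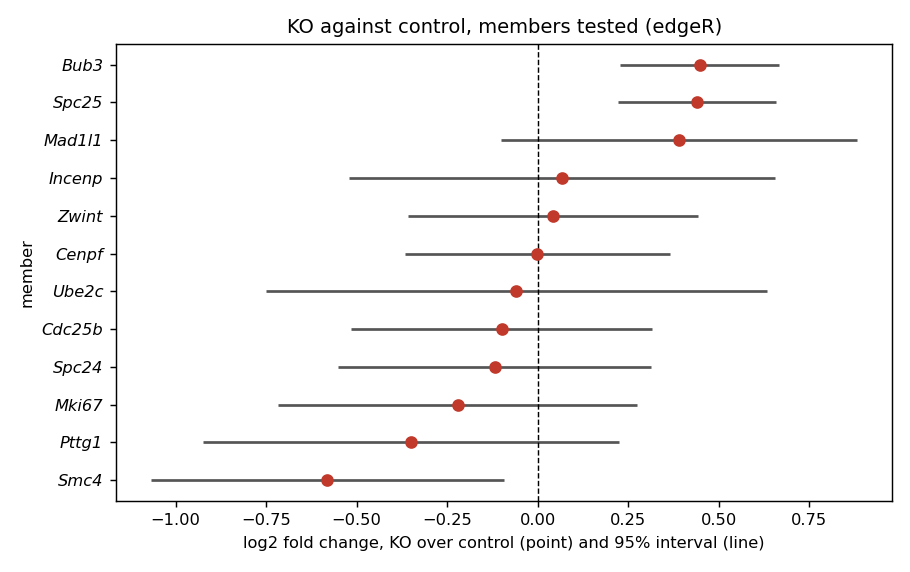
Log2 fold change of KO over control (points) with its 95% interval (lines) for the same 12 genes, from edgeR without adjustment for the number of genes. The intervals of Bub3, Spc25 and Smc4 lie clear of 0 and those of the other 9 cover it.

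Spc25, a subunit of the Ndc80 complex that binds kinetochores to microtubules, had the highest level of the 49 genes. Its KO libraries had a lowest, median and highest level of 124.3, 154.3 and 198.1 CPM. Its control libraries had 89.1, 121.5 and 131.9 CPM. All 6 KO libraries lay above the control mean, and only KO replicate 3, at the KO minimum, lay within the control range. The means were 161.3 ± 26.5 CPM in KO and 118.8 ± 15.3 CPM in control libraries (SD, n = 6 each). The log2 fold change was 0.44 ± 0.11 (SE), a fold of 1.36 (95% interval 1.17 to 1.58), with an adjusted p of 0.120 in edgeR. DESeq2 gave an adjusted p of 0.0224, and the authors' deposited table lists an unadjusted p of 3.48e-05 for a log2 fold change of 0.44.

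The call of Spc25 depended on a single library and on terms in the model. Without KO replicate 3 it passed in edgeR (0.51 ± 0.10, adjusted p = 0.0488). It also passed with the summed acinar markers as a covariate (0.41 ± 0.09, adjusted p = 0.0200), an alternative chosen after seeing the data. Without the 3 libraries with the most acinar RNA it was 0.40 ± 0.10 (adjusted p = 0.0533). The sample titles carry numbers, up to 706 for all KO libraries and control replicate 1, and from 805 for the other 5 controls. With a term for that division the difference was 0.32 ± 0.21 (adjusted p = 0.905, edgeR), so genotype and title number can hardly be told apart. Among the titles up to 706, the KO mean of 161.3 CPM stood beside 129.1 CPM in the single control.

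The level of Spc25 set it apart from its partners in the same complex. Per kilobase of exon, the mean over 12 libraries was 43.9 CPM for Spc25, 1.67 CPM for Spc24, 0.058 CPM for Ndc80 and 0.039 CPM for Nuf2, although the 4 proteins form a single complex. The Spc25 level per kilobase was 26.4 times that of Spc24, 761.7 times that of Ndc80 and 1139 times that of Nuf2. It lay above 97.2% of 15213 genes with counts and a known length, while the median of the 49 genes lay above 25.7%. The second of the 49 genes by this scale, Bub3, was 10.8 times lower. Ndc80 had 11 counts in KO and 6 in control libraries, with 0 in 5 of the 12, and Nuf2 had 6 and 4, with 0 in 6.

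On chromosome 2, the gene next to Spc25 is G6pc2, which encodes the glucose-6-phosphatase of beta cells. The 2 genes point away from each other on opposite strands, with a gap of 4878 bases in GRCm38 and no shared exon. G6pc2 averaged 1101 ± 127.4 CPM in KO against 996.5 ± 150.4 CPM in control libraries (SD, n = 6 each), with a log2 fold change of 0.14 ± 0.12 (SE, edgeR adjusted p = 0.819). Per 100 counts of G6pc2, Spc25 had 11.9, 14.8 and 18.6 counts as the lowest, median and highest KO value and 10.1, 12.1 and 13.3 in controls. The 2 groups overlapped on this ratio as well, through KO replicates 3 and 4, at 12.7 and 11.9. The other KO libraries lay above the highest control.

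The promoter of Spc25 is shown because the level of the gene departs from those of its partners. These are the 250 bases before its start in RefSeq, chr2:69206214-69206463 on the minus strand of GRCm38.p6, with CCAAT boxes in capitals.
Spc25: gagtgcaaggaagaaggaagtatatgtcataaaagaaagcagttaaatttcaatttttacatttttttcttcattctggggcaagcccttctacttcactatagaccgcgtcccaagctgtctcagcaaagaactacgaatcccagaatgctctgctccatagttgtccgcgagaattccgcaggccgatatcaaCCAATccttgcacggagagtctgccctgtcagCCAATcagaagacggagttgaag
Genes of mitosis are known to share 2 promoter elements, the cell cycle genes homology region (CHR, searched as TTTGAA) and the CCAAT box (searched as CCAAT); neither motif contains the other. Both were searched on both strands from 250 bases before to 50 after each start.

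A CHR stood in the promoter windows of 26 of the 40 genes with a RefSeq promoter (65.0%), beside 20.2% of 27025 genes. A CCAAT box stood in 70.0%, beside 41.1%, and 57.5% had both, beside 7.97% of all genes. By windows of 300 bases, since a gene can have several starts, the shares were 65.9% of 44 beside 17.9% of 32851 for CHR, 70.5% beside 37.4% for CCAAT and 59.1% beside 6.95% for both. Spc25 had its CHR 24 bases into the transcript. The CHR of some others, with its letters on either strand in capitals, is shown for comparison.
Bub3: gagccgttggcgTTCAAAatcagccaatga
Cdc20: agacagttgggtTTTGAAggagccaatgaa
Mki67: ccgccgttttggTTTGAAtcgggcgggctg
Kif11: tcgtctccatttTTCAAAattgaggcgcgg
The genes shown for comparison were picked from those with a CHR, the abundant Bub3 as well as the scarce Kif11 and Cdc20. Whether a CHR goes with the level of a gene was not tested. Ndc80, a scarce partner of Spc25, also held a CHR, 29 bases into its transcript. These matches say nothing on which factor bound there.

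**Figure D3:**
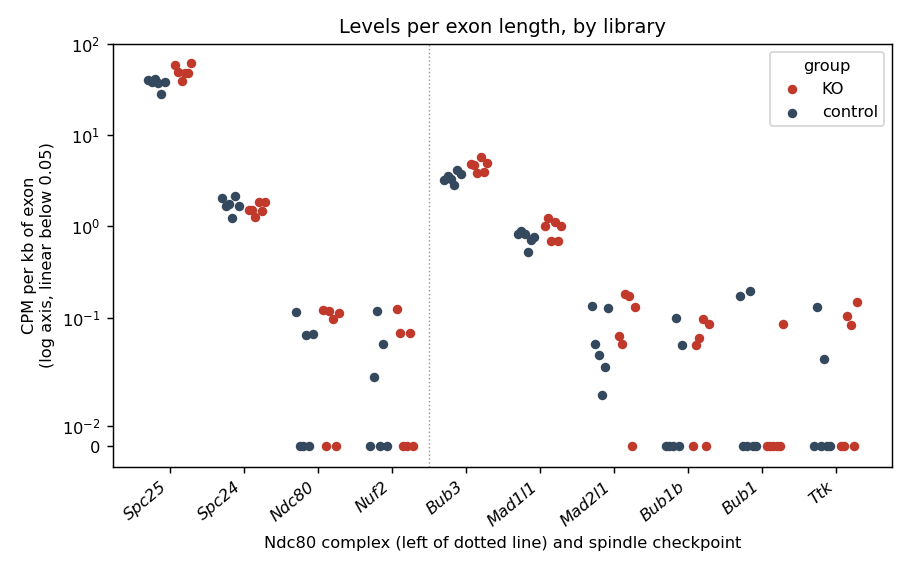
CPM per kilobase of exon in each library (points; log axis, linear near 0) for the 4 subunits of the Ndc80 complex and for 6 spindle checkpoint genes. Spc25 and Bub3 stand above their partners in every KO and control library.

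Bub3, on chromosome 7, encodes the checkpoint protein that brings Bub1 and BubR1 (Bub1b) to unattached kinetochores. It had 27.1, 33.4 and 40.6 CPM as the lowest, median and highest KO level, and 19.8, 24.1 and 28.7 CPM in controls. All 6 KO libraries were above the control mean, and control replicate 5, at the control maximum, exceeded KO replicates 3 and 5. The means were 32.8 ± 4.98 CPM in KO and 24.3 ± 3.09 CPM in control libraries (SD, n = 6 each). The log2 fold change was 0.45 ± 0.11 (SE), a fold of 1.36 (95% interval 1.17 to 1.59), with an adjusted p of 0.111 in edgeR and 0.128 in DESeq2.

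Bub3 passed only with the acinar covariate (0.46 ± 0.11, adjusted p = 0.0378, edgeR), under which 0.352% of genes tested passed. It was 0.47 ± 0.12 (adjusted p = 0.0749) without the 3 libraries with the most acinar RNA, and 0.54 ± 0.23 (adjusted p = 0.872) with the title number term. In the titles up to 706 its KO mean of 32.8 CPM stood beside 22.8 CPM in the single control. The highest and lowest log2 fold change of Bub3 over all 23 alternative settings were 0.54 and 0.37. The authors' deposited table lists an unadjusted p of 0.000414 for it.

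The partners of Bub3 were scarce. Per kilobase of exon Bub3 was at 4.08 CPM on average, 109 times the level of Bub1 and 111 times that of Bub1b, and above 75.4% of genes. Bub1, a checkpoint kinase, had 1 count in KO and 6 in control libraries. Bub1b had 5 and 3 counts, and Ttk, which encodes the kinase Mps1 that recruits Bub3 and Bub1 to kinetochores, had 6 and 4. Mad2l1, whose protein Mad2 inhibits Cdc20, had 20 counts in KO and 13 in control libraries.

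Mad1l1 and Zwint completed the checkpoint genes that were tested. Mad1l1, whose protein carries Mad2 to kinetochores, had a fold change on the log2 scale of 0.39 ± 0.24 (SE, edgeR adjusted p = 0.737), with 4 of 6 KO libraries above the control mean. Zwint, a kinetochore scaffold, had 5.10, 7.22 and 8.42 CPM as the lowest, median and highest KO level and 3.92, 7.23 and 8.64 CPM in controls. The medians of Zwint were almost equal and its log2 fold change was 0.04 ± 0.19 (SE, edgeR adjusted p = 0.98). Summed over the 7 checkpoint genes, the level was 44.6 ± 6.78 CPM in KO and 34.9 ± 1.89 CPM in control libraries (SD, n = 6 each), most of it Bub3.

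Cenpf encodes a large protein of the outer kinetochore and had the most counts of the kinetochore genes after Spc25, on CPM not divided by length. Per kilobase of exon it was at 0.744 CPM, below Spc24. Its lowest, median and highest levels were 8.92, 11.9 and 15.02 CPM in KO and 7.79, 11.1 and 15.7 CPM in control libraries. The group means were 11.5 ± 2.27 and 11.5 ± 3.29 CPM (SD, n = 6 each), and the 95% interval of the log2 fold change ran from -0.37 to 0.36. Spc24, the direct partner of Spc25, averaged 4.06 ± 0.57 CPM in KO against 4.51 ± 0.84 CPM in control libraries, with a log2 fold change of -0.12 ± 0.21 (SE, edgeR adjusted p = 0.9495). Over 22 alternative settings it ran from -0.36 to -0.054. Whether the differences of Spc25 and Spc24 were unequal was not tested.

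The other kinetochore genes fell below the filter. Cenpa, the histone variant that marks centromeres, had 14 counts in KO and 29 in control libraries, a ratio of 0.484 of scaled counts (95% interval 0.236 to 0.945, which covers counting error only, as do all intervals of count ratios here). Its counts were 1, 7, 2, 2, 1 and 1 in KO replicates 1 to 6 and 3, 8, 0, 9, 1 and 8 in control replicates 1 to 6. In CPM, KO replicate 2 was at 1.49, among the higher controls, and the other 5 KO libraries were at 0.262 to 0.507. Control replicates 3 and 5 were at 0 and 0.327, and the other controls at 1.12 to 1.90. In edgeR without a filter the adjusted p of Cenpa was 0.708. Cenpe, a kinetochore motor, had 10 and 19 counts.

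Transcripts for entry into mitosis were scarce in both groups. The 9 genes summed to 15.8 ± 1.33 CPM in KO and 15.4 ± 2.07 CPM in control libraries (SD, n = 6 each). Cdc25b, a phosphatase that activates Cdk1, was the 1 tested gene among them. Its lowest, median and highest levels were 5.10, 6.59 and 11.5 CPM in KO and 4.85, 7.90 and 10.4 CPM in control libraries. Only KO replicate 2 exceeded the control mean, and the log2 fold change was -0.10 ± 0.20 (SE, edgeR adjusted p = 0.951), or -0.31 without that library.

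Cdk1 itself had 45 counts in KO and 36 in control libraries, a ratio of 1.25 (0.790 to 1.998). Its KO levels ran from 0.853 to 2.88 CPM and its control levels from 0.653 to 2.53 CPM. The 2 ranges were nearly the same. Ccna2, the A-type cyclin, had 35 and 47 counts, Ccnb1 had 17 and 23, and Ccnb2 had 7 and 10. Each of the 3 cyclins had a ratio below 1 with an interval that covered 1. The kinase Aurka had 36 and 25 counts, and Cdc25c had 7 and 6. Plk4, the kinase of centriole duplication, had 17 and 18.

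Plk1, a kinase needed from mitotic entry to cytokinesis, had 28 counts in KO and 11 in control libraries. The ratio was 2.55 (1.23 to 5.68). Its counts were 10, 6, 6, 1, 2 and 3 in KO replicates 1 to 6 and 1, 2, 2, 2, 0 and 4 in control replicates 1 to 6. In CPM, KO replicates 1, 2, 3 and 6 lay between 1.10 and 2.62, above the highest control at 0.858, while KO replicates 4 and 5, at 0.206 and 0.8499, lay within the control range. Above the control mean were 5 of the 6 KO libraries. In edgeR without a filter its unadjusted p was 0.032 and its adjusted p 0.601, where 7.42% of 16245 genes had an unadjusted p under 0.05. Of the 37 genes below the filter, Plk1 and Cenpa were the 2 whose counting interval lay clear of 1, in opposite directions. The share of all genes below the filter with such an interval was not computed. The count of 2 is therefore not a result about these genes.

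The 2 transcription factors of the G2/M program were near the limit of detection. Foxm1 had 32 counts in KO and 30 in control libraries, a ratio of 1.07 (0.629 to 1.82). Mybl2 had 37 and 32, a ratio of 1.16 (0.702 to 1.92), with 17 counts in a single library. Together they averaged 3.01 ± 1.97 CPM in KO against 2.90 ± 1.46 CPM in control libraries (SD, n = 6 each).

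Genes of anaphase control summed to 7.40 ± 1.98 CPM in KO and 9.02 ± 1.78 CPM in control libraries (SD, n = 6 each), with a ratio of summed counts of 0.805 (0.653 to 0.991) and library ranges that overlapped. Pttg1 encodes securin, the inhibitor of separase. It had 1.85, 3.85 and 7.34 CPM as the lowest, median and highest KO level and 3.46, 4.69 and 7.30 CPM in controls. Only KO replicate 1 exceeded the control mean, and the log2 fold change was -0.35 ± 0.28 (SE, edgeR adjusted p = 0.812). It was -0.64 without that library, -0.17 without KO replicate 4 and -0.18 without control replicate 6. Ube2c, the ubiquitin-conjugating enzyme of the anaphase-promoting complex, was at -0.06 ± 0.34 on the log2 scale (adjusted p = 0.984). Below the filter, Cdc20 had 27 and 38 counts and Espl1, separase, had 2 and 4.

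The chromosomal passenger complex corrects wrong attachments through its kinase Aurkb. Its scaffold Incenp was tested, with 3.79 ± 1.58 CPM in KO and 3.42 ± 1.45 CPM in control libraries (SD, n = 6 each) and a log2 fold change of 0.07 ± 0.28 (SE, edgeR adjusted p = 0.98). Birc5, survivin, had 36 counts in KO and 21 in control libraries, a ratio of 1.72 (0.976 to 3.10). Aurkb had 2 and 6 counts. The 3 genes together gave a ratio of 1.12 (0.859 to 1.47).

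Among genes of chromosome structure, Smc4, an ATPase of condensin, had the lowest fold change of the 12 tested genes. Its lowest, median and highest levels were 2.62, 3.35 and 6.40 CPM in KO and 4.52, 5.43 and 7.84 CPM in control libraries. Of the KO libraries 5 lay below every control, and KO replicate 2 lay within the control range. The log2 fold change was -0.58 ± 0.24 (SE; unadjusted p = 0.0215, adjusted p = 0.548, edgeR), between -1.05 and -0.44 over 22 alternative settings with adjusted p-values of 0.221 to 0.921. Smc2, its partner in condensin, had 30 counts in KO and 19 in control libraries (ratio 1.58, 0.861 to 2.97). Ncapg had 7 and 9 counts, and Ncaph had 5 and 2.

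Mki67, which encodes the proliferation marker Ki-67, had 2.99, 4.396 and 7.65 CPM as the lowest, median and highest KO level and 3.59, 5.48 and 6.75 CPM in controls. Only KO replicates 5 and 6 exceeded the control mean. The log2 fold change was -0.22 ± 0.24 (SE, edgeR adjusted p = 0.900), a fold of 0.858 (95% interval 0.609 to 1.21). KO replicate 6, with 7.32 CPM of Mki67, also held 74.0 CPM of the lymphocyte gene Cd52 and 33.0 CPM of the B cell gene Cd79b, where the other 11 libraries had at most 10.6 and 2.12 CPM. The part of these cells in the Mki67 level was not tested. These 2 KO libraries also held the most acinar RNA. The log2 fold change of Mki67 was -0.54 ± 0.26 (adjusted p = 0.586, edgeR) without the 3 acinar-rich libraries and -0.36 ± 0.24 (adjusted p = 0.771) with the acinar covariate. It ran from -0.36 without KO replicate 6 to -0.098 without KO replicate 2. Top2a, topoisomerase II alpha, had 44 counts in KO and 48 in control libraries. Its lowest, median and highest levels were 0.732, 1.42 and 3.09 CPM in KO and 1.49, 1.78 and 3.16 CPM in controls, and KO replicate 6 held the lowest of them.

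No gene of the spindle motors and cytokinesis passed the filter. The 11 genes summed to 144 counts in KO and 121 in control libraries, 6.48 ± 1.46 and 5.41 ± 1.27 CPM (SD, n = 6 each), with a ratio of 1.19 (0.930 to 1.53). Kif11, the motor that pushes spindle poles apart, had 24 and 13 counts. Tpx2, a spindle assembly factor, had 20 and 13. Kif23, a motor of the central spindle, had 16 and 8, while Prc1, which bundles the same microtubules, had 8 and 17. Nusap1 had 26 and 21 counts, Kif20a 14 and 14, Hmmr 13 and 11, and Kif20b 7 and 8. The scarcest were Ckap2 with 6 and 6, Ect2 with 5 and 8 and Anln with 5 and 2.

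**Figure D4:**
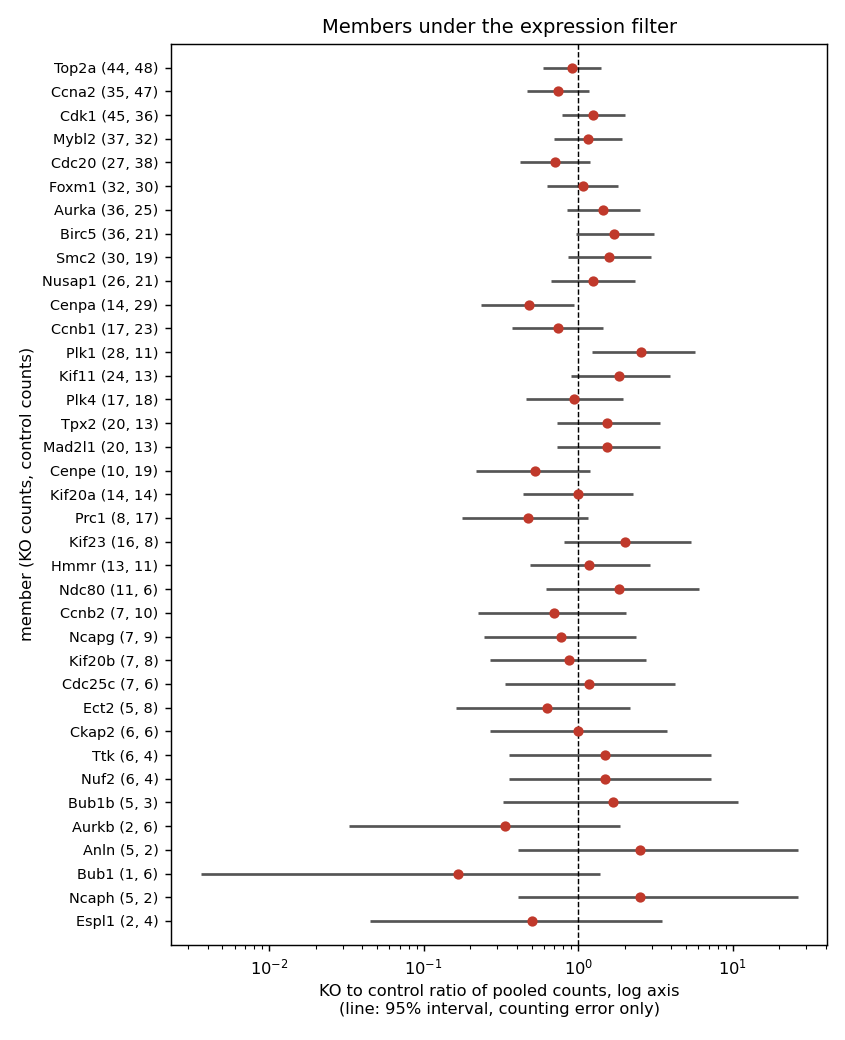
KO to control ratio of scaled counts (points, log axis) with 95% intervals for counting error only (lines) for the 37 genes below the expression filter, with KO and control counts beside each name. The intervals of Plk1 and Cenpa lie clear of 1 and those of the other 35 cover it. The share over all genes below the filter was not computed.

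The 37 genes below the filter had 6 to 92 counts each over all 12 libraries, with a median of 28. Of them, 28 had 0 counts in at least 1 library, and a count of 0 allows up to 0.618 to 1.27 CPM, depending on the library. The ratio was above 1 for 22 and below 1 for 15, and edgeR without a filter gave them adjusted p-values from 0.601 to 0.9999. The same split over all genes below the filter was not computed. Differences within the counting intervals were not detectable at this depth. The authors' deposited table lists an unadjusted p under 0.05 for 4 of the 49 genes, beside 4.72% of all genes with a p in it. These were Spc25, Bub3, Smc4 and Plk1.

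Summed over all 49 genes, KO libraries held 6108 and control libraries 5041 counts, a ratio of 1.21 (1.17 to 1.26). The sums were 273.7 ± 33.0 CPM in KO and 223.9 ± 15.9 CPM in control libraries (SD, n = 6 each). Spc25 made up 55.9% of these counts, and Spc25 with Bub3 67.5%. Without these 2 genes the ratio was 0.979 (0.917 to 1.05), with 79.5 ± 8.09 CPM in KO and 80.7 ± 5.40 CPM in control libraries. Over the 37 genes below the filter alone it was 1.07 (0.956 to 1.20). The higher sum in KO libraries thus lay in Spc25 and Bub3, and no p is given for sums over genes that were chosen with results known.

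**Figure D5:**
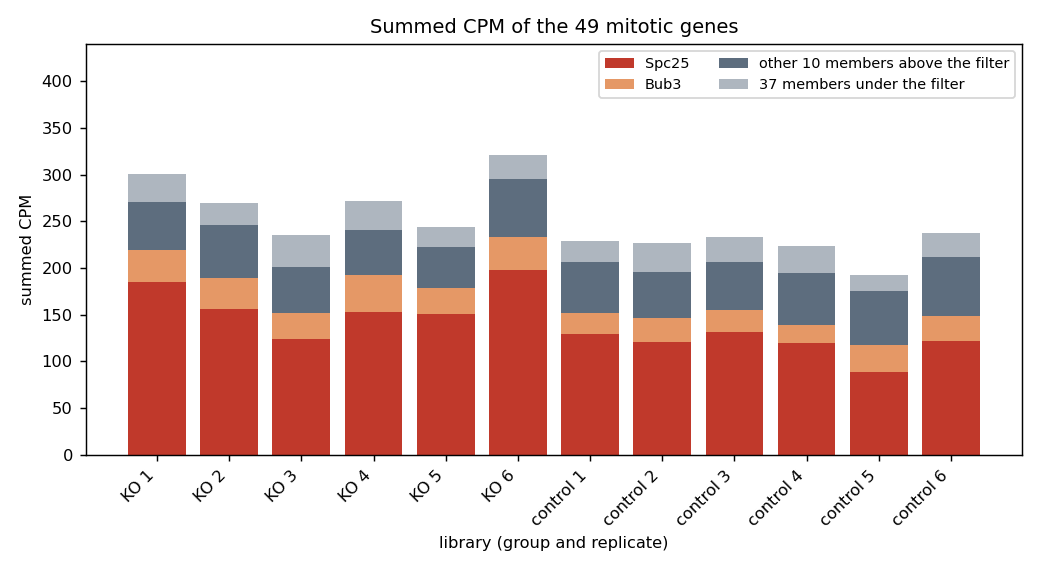
Summed CPM of the 49 mitotic genes in each library, stacked as Spc25, Bub3, the other 10 genes above the filter and the 37 below it. Spc25 is the largest single gene in every bar, and the part outside Spc25 and Bub3 stays between 64.6 and 89.7 CPM in all 12 libraries.

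The wider machinery of mitosis was described with 175 further genes, all found, of which 99 were tested. None passed in edgeR, where 0.0724% of all genes passed as higher in KO and 0.124% in either direction, and none passed in DESeq2 or voom. At an unadjusted p under 0.05 there were 13, beside 7.91% of all genes tested. Above 0 lay 48 and below 0 lay 51, with a median of 0.00. For 10 tested kinetochore genes the median was -0.12, with 2 above 0 and 8 below. For 15 tested genes of the anaphase-promoting complex it was 0.01, and for 11 of cohesin and condensin 0.04.

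The 3 smallest p-values in this wider set belonged to Ube2s, Cdkn1a and Clasp1. Ube2s, which extends ubiquitin chains for the anaphase-promoting complex, averaged 38.6 ± 2.58 CPM in KO against 46.2 ± 2.58 CPM in control libraries (SD, n = 6 each; log2 fold change -0.26 ± 0.07, SE; adjusted p = 0.259, edgeR). All 6 of its KO values lay below all its control values, the highest KO value at 43.6 and the lowest control at 43.7 CPM. Clasp1, a stabiliser of kinetochore microtubules, also had groups that did not overlap, 5.64 ± 1.397 against 8.51 ± 0.69 CPM (adjusted p = 0.365). Such separation held for 0.579% of all genes tested. It is not independent of the small p-values by which these genes were picked. Cdkn1a, which encodes the Cdk inhibitor p21, averaged 16.8 ± 4.56 CPM in KO against 11.3 ± 3.10 CPM in control libraries (log2 fold change 0.59 ± 0.18; adjusted p = 0.2998). It passed without the 3 libraries with the most acinar RNA, at 0.81 (adjusted p = 0.00852), a setting in which 0.296% of genes tested passed. It was 0.21 ± 0.35 (adjusted p = 0.976) with the title number term, and its adjusted p over all 23 alternatives ran from 0.00852 to 0.976.

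Among markers of other cells the 1 gene past the threshold was Beta-s, an adult beta-globin, which rose by 1.03 ± 0.20 on the log2 scale in KO (SE, edgeR adjusted p = 0.0301), a call not made by DESeq2 (adjusted p = 0.129). The globin rows Hbb-b1, Hbb-b2, Hba-a1 and Hba-a2 had 0 counts throughout. The 16 acinar markers all lay above 0, with a median of 1.18, but not through a rise in every KO library. For Cpa1, 1 of them, the medians were 901.8 CPM in KO and 902.8 CPM in control libraries. Only 2 KO libraries exceeded its control mean. The 9 tested leukocyte markers had a median of 0.49, and the 7 tested endothelial markers a median of -0.18, with 5 below 0. Summed endothelial markers lay between 112.4 and 141.9 CPM in KO and between 147.0 and 159.0 CPM in control libraries, so the groups did not overlap. Summed Schwann cell markers did not overlap either, at 15.4 to 18.3 CPM in KO and 21.2 to 23.1 CPM in control libraries. Of the 5 Schwann cell markers 2 were tested. The sums of the other marker lists overlapped between the groups, and no share over all genes was computed for sums. All 4 alpha cell markers lay below 0 (median -0.34), as did both delta cell markers (median -0.46). An unadjusted p under 0.05 (edgeR) held for 13 of the 16 acinar, 3 of the 9 leukocyte and 1 of the 7 endothelial markers. It also held for 1 of the 5 tested ductal markers and for both tested Schwann cell markers (median -0.56). Of the alpha cell markers 1 had such a p, as did both delta cell markers and 0 of the 8 beta cell markers. The share over all genes tested was 7.91%. The part of these cell types in the values of the mitotic genes was not tested, apart from the acinar settings given above.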

How the data were processed

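Total islet RNA (Trizol, then miRNeasy columns) went into standard Illumina libraries, per the labels' protocols. TopHat2, HTSeq, DESeq2 1.4.5 and mm9 are named, without roles, in the submitters' processing notes. The strand setting and the gene annotation are not given in the sources used here. The authors deposited 1 table with raw counts per gene, a normalized signal equal to the count divided by a factor per library (0.662 to 1.35), and a log2 fold change and unadjusted p-value per gene, from DESeq2 per the file headers. Of 23366 rows, 27 with a date for a gene name (0.0447% of counts) were left out.

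Counts were tested with the quasi-likelihood test of edgeR 4.0.16 in R 4.3.3, with TMM factors, the default filter (minimum count 10, minimum total 15), adjusted p-values after Benjamini and Hochberg under 0.05 counting as called, 6 KO against 6 control libraries with no covariate. CPM use TMM-scaled library sizes. The SE is the log2 fold change divided by the root of F. Ratios of summed counts have exact conditional binomial 95% intervals from scipy 1.17.1, and limits for 0 counts are 3 counts; both reflect counting error alone, as reads need not be independent molecules. The fitting scripts were tested on simulated data.

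The 49 genes, the further gene lists, the tests and the rule for named genes were chosen with earlier results of these data known. The rule gives per-group ranges for the 8 genes of highest mean CPM, for each tested gene with an unadjusted p under 0.05, for genes whose groups do not overlap, and for Mki67, Top2a and Cdk1, and names from the further lists those past the threshold or else the 3 smallest p-values. G6pc2, Cd52, Cd79b, Plk1 and Cenpa were singled out after their values were seen.

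GENCODE M21 (GRCm38) gave exon lengths, 3′ UTRs of at least 20 bases and gene order, and RefSeq (GRCm38.p6) gave promoters, matched for 40 genes, and microRNAs. The authors' build differs, so counts were not placed on these coordinates. Exons of 13 of the 49 genes overlap another annotated gene, among them the tested Cdc25b, Mad1l1 and Ube2c, and without a known strand setting their counts are less certain. Over 66 pairs of libraries the lowest chi-square per gene was 2.03, so no library was a copy. Alternatives were DESeq2 1.42.0, other factors and filters, a replicate block, voom of limma 3.58.1, an adjusted p of 0.10 and each library left out. Chosen after seeing the data were an acinar covariate, a term for title numbers, leaving out the 3 libraries with the most acinar RNA, and sums without Spc25 and Bub3. Figures used matplotlib 3.10.9.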

Additional observations from a re-analysis of the deposited data

Results flagged for a closer look

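A single library stood far from the other 5 of its group in 5 of the 30 groups of values checked, where chance alone flags about 1 in 20. Spc25 was at 89.1 CPM in control replicate 5, against 119.7 to 131.9 CPM in the other controls, and the summed level of all 49 genes was at 193.0 CPM in the same library, against 223.6 to 238.0 CPM. Spc25 made up 55.9% of the counts in that sum over all libraries, so the 5 flags are not 5 separate cases. Cdc25b was at 11.5 CPM in KO replicate 2, against 5.10 to 6.96 CPM in the other KO libraries. Smc4 was at 6.40 CPM in the same library, against 2.62 to 3.55 CPM. Incenp was at 6.22 CPM in control replicate 6, against 2.26 to 3.46 CPM.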

How the results depend on the processing

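The count of genes called over the whole table was 12. It was 28 with DESeq2, 22 with no filter, 26 at an adjusted p of 0.10, 34 with the acinar covariate, 30 without the 3 libraries with the most acinar RNA and 0 with the term for title numbers, a term that only control replicate 1 separates from genotype. It ran from 5 to 17 with 1 library left out. It fell to 5, 6 and 7 without KO replicate 1, KO replicate 4 and control replicate 5. Of the 49 genes, DESeq2 called 1 and the acinar covariate 2, and leaving out a library gave 0 or 1. Of the further mitotic genes, 1 passed without the 3 acinar-rich libraries, Cdkn1a. The ratio of summed counts stayed between 1.18 and 1.25 with 1 library left out and was 0.979 without Spc25 and Bub3. Scaled by library totals it was 1.19, and by totals without the insulin genes Ins1 and Ins2 it was 1.13 (1.09 to 1.17). In that last scaling the KO sums, 422.0 to 796.4 CPM, spanned the control sums, 504.8 to 630.8 CPM. The replicate numbers do not pair the libraries (correlations of deviations from -0.15 to 0.07), and with a replicate block 15 genes and 0 of the 49 passed (Spc25 adjusted p = 0.114, Bub3 0.191, edgeR).

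Genes near 0 turned their sign. Cenpf was at 0.00019 with DESeq2, 0.0019 with RLE factors, 0.0011 with upper quartile factors, 0.0011 with a minimum count of 20, 0.040 with the replicate block and 0.029 with voom, and from -0.11 to 0.10 with 1 library left out. Left-out libraries moved Zwint from -0.058 to 0.14, Ube2c from -0.26 to 0.084 and Incenp from -0.084 to 0.35. With the title term Cdc25b was at 0.60, Zwint at -0.10, Ube2c at 1.60 and G6pc2 at -0.019. Ube2c was at 0.075 with the acinar covariate, and Incenp at -0.033 without the acinar-rich libraries. The causes were not tested. The call of Beta-s was lost with DESeq2, with the title term, and in some fits with 1 library left out (adjusted p from 0.00373 to 0.0909). Depth limits the 37 genes with at most 92 counts over 12 libraries.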
